A study of Mus musculus with 6 samples.

Results

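Interferon-stimulated genes are the genes that a cell switches on when interferon binds its receptors, and they encode antiviral, antigen-presenting and signalling proteins. A list of 51 such genes was matched by gene symbol. All 51 were found among the 57180 genes of the deposited table, and all 51 passed the filter on low counts that left 14761 genes for testing. They were compared between CD36+ NK and CD36- NK cells, which were sorted by flow cytometry from the livers of mice with fibrosis. CD36 is a scavenger receptor that takes up fatty acids, and the study asked what it does in NK cells.

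Both groups came from male C57BL/6J mice aged 6-8 weeks that had received CCl4, a liver toxin, at 2.5 ml/kg of a 20% solution with 2 injections per week for 4 weeks. The livers were taken 48 h after the last injection. Each group had 3 libraries, which the labels name as biological replicates, and whether same-numbered libraries shared animals was not given in the sources used here. Both groups carried the CCl4 treatment, and no library from untreated liver was analysed here. Total counts ran from 10292480 to 13787189 per library. Levels are given as CPM, which are counts relative to the library's total, scaled by edgeR's TMM factors, and as FPKM where genes are compared with each other, because FPKM also divides by gene length. Differences are given as log2FC, the log2 of the ratio of CD36+ NK to CD36- NK, with its standard error (SE). DEGs were genes that passed an adjusted p of 0.05 in edgeR's quasi-likelihood test with more than a 2-fold change.

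Type I interferons (IFN-α and IFN-β) act through IFNAR1 and IFNAR2, with the kinases JAK1 and TYK2, and lead to a complex with STAT2 and IRF9 that binds the interferon-stimulated response element (ISRE). IFN-γ, the type II interferon that NK cells themselves secrete, acts through IFNGR1 and IFNGR2 with JAK1 and JAK2, and its signal reaches the gamma-activated site (GAS) of its target genes. IRF1 and IRF7 extend the response, and USP18 and the SOCS proteins restrain it. The IFIT, OAS and MX families act on viral RNA and virus particles, while the guanylate-binding proteins (GBPs) and the immunity-related GTPases (IRGs) act on vacuoles that hold microbes and are classical IFN-γ targets.

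None of the 51 genes was a DEG between the fractions, where 5.96% of all tested genes were. DESeq2, run as another test, called 1 of them, Iigp1, higher in CD36+ NK. So did edgeR with a block for the form of the library name, which sets replicate 1 of each group apart. The 5.96% belongs to edgeR without a block, and the share of all tested genes called by those other fits is not given here. In edgeR a single gene, Gbp4, passed the adjusted p-value alone and was lower in CD36+ NK, where 10.5% of all tested genes passed it. By sign, 34 genes had a higher and 17 a lower mean log2 level in CD36+ NK. Of all 14761 tested genes, 7658 were higher and 7103 lower by sign. The median log2FC of the 51 was 0.12, and over all tested genes it was 0.01. With each replicate left out in turn, the median of the 51 ran from 0.03 to 0.20. The 3 CD36+ NK libraries lay wholly above the 3 CD36- NK libraries for 5 genes (Iigp1, Ly6e, Bst2, Ifi27l2a and Trim25) and wholly below them for 2 (Gbp4 and Gbp7). Such a separation was seen in 32.8% of all tested genes, 17% higher and 15.7% lower. An unadjusted p-value below 0.05 was reached by 5 of the 51 genes (9.80%) and by 26.3% of all tested genes. The 95% confidence interval lay within a 2-fold change in either direction for 39 of the 51 genes (76.5%), against 67.9% of all tested genes. For the remaining genes the interval reached beyond a 2-fold change.

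The sequences in front of these genes were searched for the binding motifs of the interferon pathways. RefSeq promoter windows on GRCm38.p6, from 250 bases before to 50 bases after the start of the gene, were found for 38 of the 51 genes. The core of the ISRE was searched as GAAA, any 2 bases and GAAA, on both strands. It was present in 20 of the 38 genes (52.6%), against 3.99% of the 27025 genes that have such a window. The GAS core, TTCNNNGAA, which reads the same on both strands, was present in 10 of the 38 genes (26.3%), against 9.55% of all genes with a window. A match describes the letters and was not tested as a binding site. The stretches below run 5′ to 3′ on the strand of the gene, in the promoters of genes whose levels are described further on. Capitals mark the ISRE core or its reverse complement.
Isg15, chr4:156200840-156200931, minus strand: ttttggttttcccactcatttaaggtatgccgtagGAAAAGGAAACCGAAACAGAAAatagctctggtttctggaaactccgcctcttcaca
Ifit1, chr19:34640750-34640848, plus strand: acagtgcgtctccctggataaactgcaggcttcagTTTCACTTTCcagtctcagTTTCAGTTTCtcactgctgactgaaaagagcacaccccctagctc
Ifit3, chr19:34583338-34583451, plus strand: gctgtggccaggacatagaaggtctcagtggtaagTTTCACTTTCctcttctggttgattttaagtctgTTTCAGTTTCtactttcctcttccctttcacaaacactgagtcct
Gbp2, chr3:142620569-142620648, plus strand: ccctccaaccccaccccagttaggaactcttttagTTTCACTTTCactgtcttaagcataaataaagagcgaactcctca
Gbp7, chr3:142530248-142530327, plus strand: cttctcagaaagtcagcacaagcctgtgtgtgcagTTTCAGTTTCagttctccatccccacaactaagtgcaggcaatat
Igtp, chr11:58199487-58199555, plus strand: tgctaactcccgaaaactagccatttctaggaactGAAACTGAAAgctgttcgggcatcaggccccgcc
Irgm2, chr11:58214878-58214957, plus strand: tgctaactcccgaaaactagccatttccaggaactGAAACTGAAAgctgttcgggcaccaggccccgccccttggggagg
Isg15 had 3 overlapping cores, and Ifit1 and Ifit3 had 2 each. The stretch of Ifit3b, at chr19:34607734-34607847, was identical to that of Ifit3 over all 114 bases. By class, the core was found in 4 of 4 GBP genes with a window, 3 of 3 IRG genes, 3 of 4 IFIT genes, 4 of 6 sensors, 4 of 11 other antiviral genes, 2 of 6 regulators, 0 of 3 antigen processing genes and 0 of 1 in the PARP and Dtx3l class. The median log2FC was 0.14 over the 20 genes with the core and -0.01 over the 18 genes without it.

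**Figure D1:**
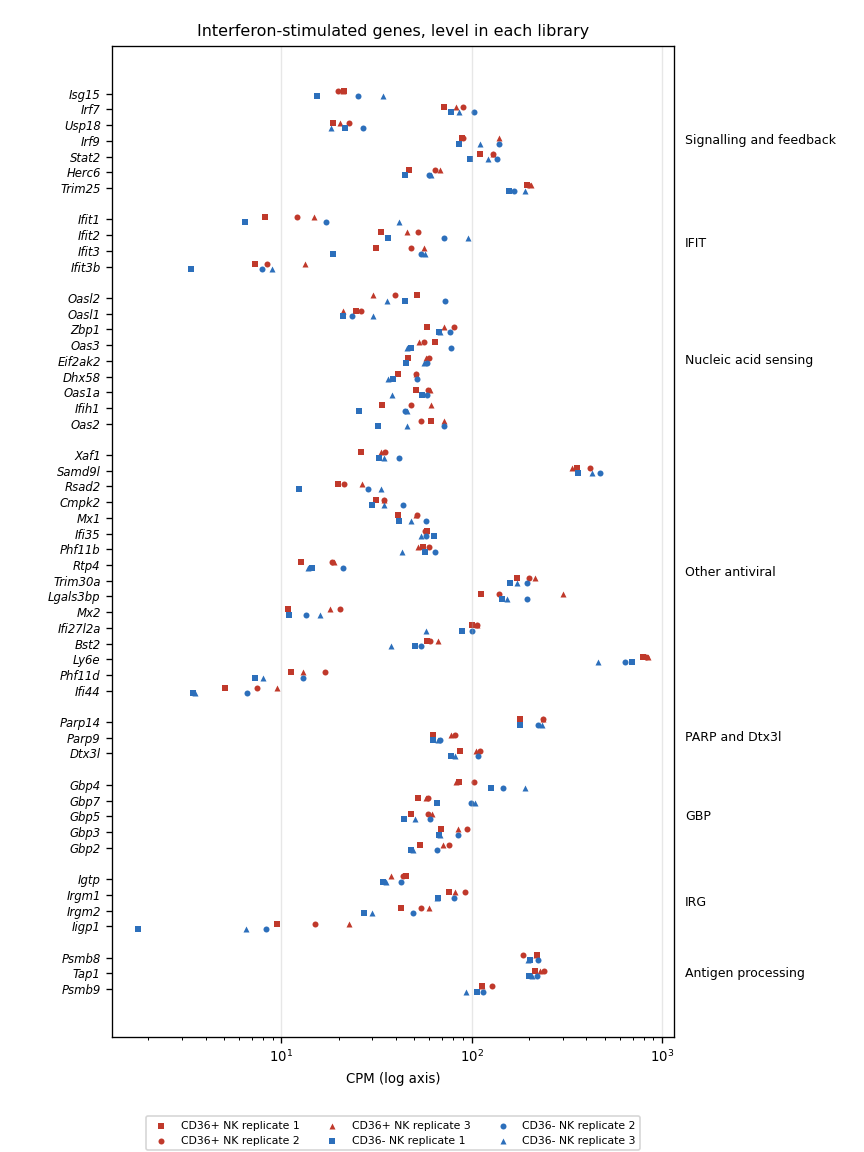
Level of each of the 51 interferon-stimulated genes in each of the 6 libraries, as TMM-scaled CPM on a log axis, with genes grouped by class. Red marks CD36+ NK and blue CD36- NK, and squares, circles and triangles mark replicates 1, 2 and 3. The red and blue marks of most genes interleave.

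The list spanned a wide range of levels. Per length, Ifi27l2a, which encodes a small mitochondrial protein, was the highest of the 51 with a mean FPKM of 202 over the 6 libraries. It was followed by Ly6e (87.1), Samd9l (68.9), Bst2 (48.3), Phf11b (46.7) and Trim30a (41.3). The lowest were Ifi44 (0.785), Iigp1 (0.913) and Phf11d (1.86). All 51 genes had counts in every library.

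Among the 5 GBPs, Gbp4 was lower in CD36+ NK, Gbp7 had a lower level that missed the threshold, and Gbp2, Gbp3 and Gbp5 lay slightly the other way. GBPs are GTPases that coat the vacuoles and membranes of microbes inside cells. Gbp4 (ENSMUSG00000079363, chr5:105263633-105287452, minus strand, in the coordinates of the deposited table) had 86.1, 103 and 82.4 CPM in CD36+ NK replicates 1 to 3 and 126, 147 and 191 CPM in CD36- NK replicates 1 to 3. Every CD36+ NK library lay below every CD36- NK library. The log2FC was -0.77 (SE 0.169, 95% confidence interval -1.17 to -0.38, edgeR adjusted p = 0.0328), with means of 90.4 ± 10.8 CPM (SD, n = 3) and 155 ± 33.1 CPM (SD, n = 3). The call did not hold without CD36+ NK replicate 1, 2 or 3 (edgeR adjusted p = 0.0636, 0.068 and 0.118) or without CD36- NK replicate 3 (-0.60, adjusted p = 0.0668), nor with the replicate number as a block (-0.76, adjusted p = 0.0664).

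Gbp7 (ENSMUSG00000040253, chr3:142236103-142255910, plus strand), chosen for naming after its values were seen, had 52.2, 59.3 and 57.7 CPM in CD36+ NK and 65.4, 99.6 and 104 CPM in CD36- NK. Its groups did not overlap either, and CD36- NK replicate 1 lay nearest to CD36+ NK. The log2FC was -0.67 (SE 0.178, edgeR adjusted p = 0.0582). Without CD36- NK replicate 1 it was -0.86 and passed the threshold (edgeR adjusted p = 0.0131). It also passed with DESeq2 (-0.68, adjusted p = 0.00971), with the block for the form of the library name (edgeR adjusted p = 0.025) and with replicates 2 and 3 alone (edgeR adjusted p = 0.0342). Gbp2 (ENSMUSG00000028270, chr3:142326363-142343769, plus strand), the GBP of highest FPKM (21.4), had 53.6, 76.4 and 70.9 CPM in CD36+ NK and 48.1, 66 and 49.1 CPM in CD36- NK. The groups overlapped, and the log2FC was 0.30 (SE 0.177, edgeR adjusted p = 0.34). Gbp3 and Gbp5 had log2FCs of 0.18 and 0.12. Gbp2, Gbp3, Gbp5 and Gbp7 lie next to each other on chromosome 3, where Gbp7 shared 12.7% of its 50-base runs with other annotated genes, so part of its fragments could have been counted elsewhere.

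**Figure D2:**
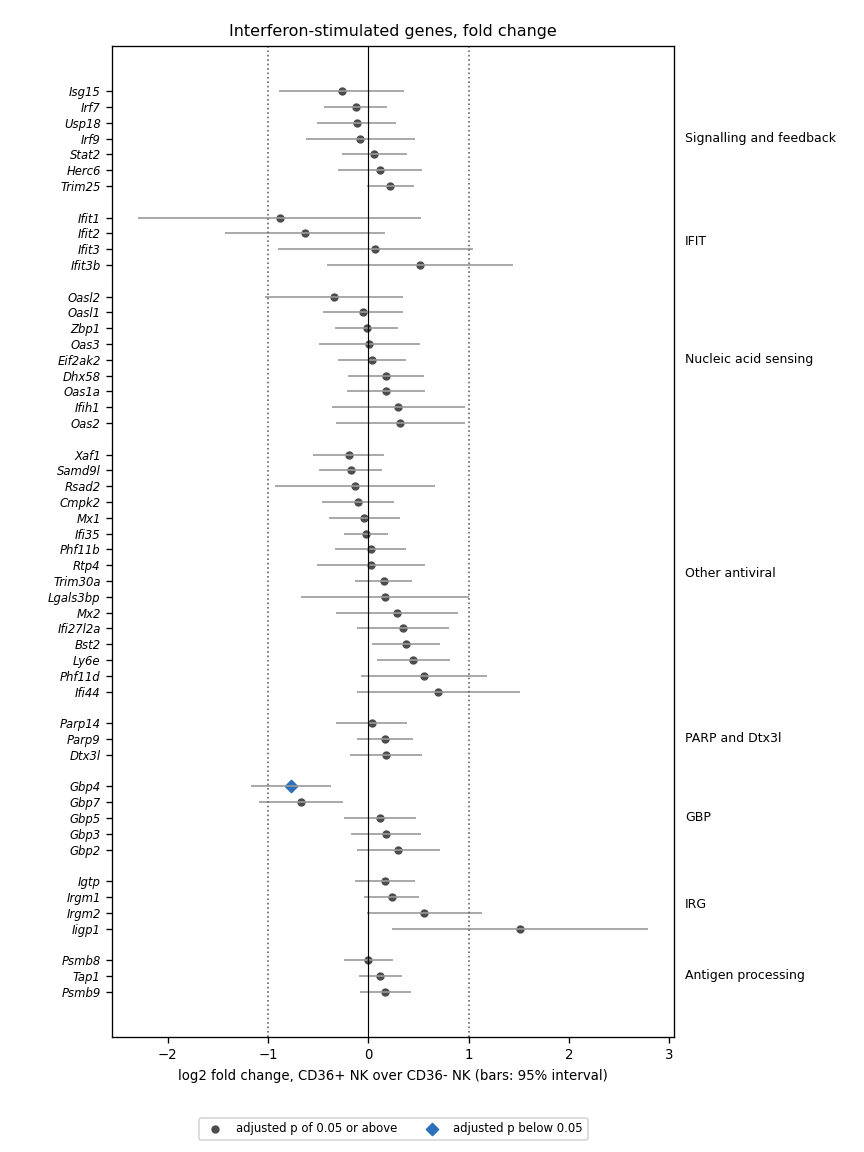
Log2FC, CD36+ NK over CD36- NK for the 51 genes, with 95% confidence intervals from edgeR's quasi-likelihood fit and dotted lines at a 2-fold change. The blue diamond is Gbp4, the gene that passed an adjusted p of 0.05, and the values run from -0.88 for Ifit1 to 1.52 for Iigp1.

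The 4 IRG genes all had higher mean levels in CD36+ NK by sign, and none passed the adjusted threshold. IRGs are GTPases that break down the vacuoles of intracellular parasites. Iigp1 (ENSMUSG00000054072), which encodes an effector of this kind, had 107, 205 and 272 counts in CD36+ NK and 23, 94 and 67 counts in CD36- NK. As CPM these were 9.5, 15.1 and 22.6 against 1.76, 8.29 and 6.53, so the lowest CD36+ NK library lay above the highest CD36- NK library. The log2FC of 1.52 was the highest of the 51 genes and the only one beyond 2-fold (1.96% of the list, where 10.4% of all tested genes were beyond 2-fold in either direction). With a SE of 0.542 and a 95% confidence interval from 0.24 to 2.79, it did not pass the adjusted threshold in edgeR (adjusted p = 0.126), and it did in DESeq2 (1.5, adjusted p = 0.0291) and in edgeR with the block for the form of the library name (1.63, adjusted p = 0.0248).

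Irgm1 (ENSMUSG00000046879, chr11:48752795-48762510, minus strand), a regulator of the other IRGs and the IRG gene of highest FPKM (9.44), had 76.3, 91.8 and 82.2 CPM in CD36+ NK and 66.9, 80.4 and 65.8 CPM in CD36- NK. Only replicate 2 of CD36- NK reached into the CD36+ NK range, and the log2FC was 0.23 (SE 0.117, edgeR adjusted p = 0.264). Irgm2 and Igtp had log2FCs of 0.56 and 0.17 (edgeR adjusted p = 0.2 and 0.464). Without CD36- NK replicate 2, the change of Irgm2 was 0.87 and passed the threshold (edgeR adjusted p = 0.0246). Igtp and Irgm2 overlap by 7974 bp on the same strand of chromosome 11, so fragments there could belong to either.

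The 4 IFIT genes, whose proteins bind viral RNA that lacks the marks of host messages, were split by sign with 2 higher and 2 lower, and their spread within a group was among the widest of the list. Ifit2 (ENSMUSG00000045932, chr19:34528094-34553819, plus strand) had 33.6, 52.1 and 45.6 CPM in CD36+ NK and 36.3, 71.6 and 95.8 CPM in CD36- NK. Its log2FC was -0.63 (SE 0.339, edgeR adjusted p = 0.297), the lowest p-value of the class. Ifit3 (ENSMUSG00000074896, chr19:34560931-34566131, plus strand), the IFIT gene of highest FPKM (25.3), had 31.4, 47.9 and 56.4 CPM in CD36+ NK and 18.6, 53.9 and 57 CPM in CD36- NK. In both genes the groups overlapped, and replicate 1 was the lowest library of each group. The log2FC of Ifit3 was 0.07 (SE 0.413, edgeR adjusted p = 0.94), with a 95% confidence interval from -0.90 to 1.04.

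Ifit1 (ENSMUSG00000034459, chr19:34618271-34627409, plus strand), named after its values were seen, had 8.17, 12 and 14.8 CPM in CD36+ NK and 6.44, 17.1 and 41.4 CPM in CD36- NK. Its CD36- NK libraries thus spanned 6.43-fold, the widest range of any of the 51 genes in either group, and its log2FC of -0.88 had a 95% confidence interval from -2.30 to 0.53. Without CD36- NK replicate 3 the differences of Ifit1 and Ifit2 were -0.02 and -0.31 on the log2 scale. Summed over the 4 IFIT genes, the level was 80.4, 120.5 and 130.0 CPM in CD36+ NK and 64.7, 151 and 203 CPM in CD36- NK. Ifit3b had a log2FC of 0.52 (edgeR adjusted p = 0.466). Ifit3 shared 51.2% of its 50-base runs with Ifit3b, and Ifit3b shared 44.5% with Ifit3, so the division of fragments between this pair is uncertain.

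None of the 9 genes for the sensing of foreign RNA and DNA passed the threshold, and their median log2FC was 0.04. The OAS proteins make the messenger that activates RNase L. Oas2 (ENSMUSG00000032690, chr5:120868398-120887918, minus strand) had 61, 54.5 and 71.5 CPM in CD36+ NK and 32.4, 71.6 and 45.9 CPM in CD36- NK. The lowest and the highest of the 6 levels were thus both CD36- NK libraries, and the log2FC was 0.32 (SE 0.273, edgeR adjusted p = 0.525). Oas1a (ENSMUSG00000052776, chr5:121034319-121045584, minus strand), the sensor of highest FPKM (28.4), had 51.3, 59.2 and 60.3 CPM in CD36+ NK and 54.6, 58.1 and 38.2 CPM in CD36- NK. Its log2FC was 0.18 (SE 0.166, edgeR adjusted p = 0.566), and 57.6% of its 50-base runs were shared with Oas1g. Ifih1 and Dhx58, which encode the RNA sensors MDA5 and LGP2, had log2FCs of 0.30 and 0.17. Eif2ak2, which encodes the kinase PKR that halts translation on double-stranded RNA, had 0.04. Zbp1, a sensor of left-handed nucleic acid that can trigger cell death, had -0.02. The remaining OAS and OAS-like genes lay between -0.34 (Oasl2) and 0.01 (Oas3).

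The 16 other antiviral genes held 10 higher and 6 lower by sign, with a median log2FC of 0.09. Ly6e (ENSMUSG00000022587, chr15:74826900-74831752, plus strand), which encodes a membrane-anchored protein that restricts coronavirus entry, had 795, 819 and 848 CPM in CD36+ NK and 696, 642 and 462 CPM in CD36- NK. The groups did not overlap, and the spread was wider in CD36- NK. The log2FC was 0.45 (SE 0.156, 95% confidence interval 0.08 to 0.82, edgeR adjusted p = 0.115). Ifi27l2a (ENSMUSG00000079017, chr12:103408426-103409939, minus strand) had 101, 107 and 107 CPM in CD36+ NK and 89.2, 101 and 57.4 CPM in CD36- NK. The highest CD36- NK library lay just under the lowest CD36+ NK library, and the log2FC was 0.35 (SE 0.194, edgeR adjusted p = 0.317).

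Bst2 encodes tetherin, which holds budding virus at the cell surface and is a marker of plasmacytoid dendritic cells in mice. It also had no overlap between the groups, with 58.5, 60.1 and 66.5 CPM in CD36+ NK and 50.6, 54 and 37.8 CPM in CD36- NK (log2FC 0.38, SE 0.145, edgeR adjusted p = 0.151). In Ly6e, Ifi27l2a and Bst2 alike, the lowest level was that of CD36- NK replicate 3. Without that library the differences of Ly6e, Ifi27l2a and Bst2 were 0.29, 0.13 and 0.23 on the log2 scale. Lgals3bp, a secreted glycoprotein, showed the widest range within CD36+ NK, at 112, 139.9 and 302 CPM, and in CD36- NK it had 144, 195 and 154 CPM. Its high value was that of CD36+ NK replicate 3. Mx1 and Mx2, which encode GTPases that trap viral particles, had log2FCs of -0.04 and 0.29, and Rsad2, which encodes the antiviral enzyme viperin, had -0.13. Bst2 and Lgals3bp were named after their values were seen.

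The 7 regulators of the response showed no difference past the threshold. Trim25 (ENSMUSG00000000275, chr11:88890202-88911119, plus strand), a ubiquitin ligase of the RIG-I pathway, had 194, 198 and 205 CPM in CD36+ NK and 157, 166 and 189 CPM in CD36- NK. Its groups did not overlap, and its log2FC was 0.22 (SE 0.0984, edgeR adjusted p = 0.211). Isg15 (ENSMUSG00000035692, chr4:156283912-156285253, minus strand), a ubiquitin-like protein that is attached to other proteins during the response and the regulator of highest FPKM (32.5), had 21.2, 19.8 and 21.2 CPM in CD36+ NK. In CD36- NK it had 15.4, 25.4 and 34 CPM, on both sides of the CD36+ NK libraries. Its log2FC was -0.27 (SE 0.264, edgeR adjusted p = 0.593). Stat2 and Irf9, members of the ISRE-binding complex, had log2FCs of 0.06 and -0.08. Irf7, which amplifies type I interferon production, had -0.13, and Usp18, which cuts ISG15 off proteins and damps IFNAR2, had -0.12.

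The 3 antigen processing genes and the 3 genes of the PARP and Dtx3l class were all higher by sign in CD36+ NK, with median differences of 0.12 and 0.17 on the log2 scale, and none passed the threshold. Psmb8 (ENSMUSG00000024338, chr17:34416695-34420428, plus strand), an immunoproteasome subunit and the gene of highest FPKM in its class (39.1), had 220.2, 187 and 217 CPM in CD36+ NK and 202, 223 and 198 CPM in CD36- NK. The groups overlapped, and the 95% confidence interval of its log2FC ran from -0.24 to 0.24. Psmb9 (ENSMUSG00000096727, chr17:34400961-34406738, minus strand), another such subunit, had 113, 128 and 114 CPM in CD36+ NK and 107, 115 and 93.5 CPM in CD36- NK (log2FC 0.17, SE 0.107, edgeR adjusted p = 0.37). Tap1, a subunit of the peptide transporter that loads MHC class I, overlaps Psmb9 by 212 bp on the opposite strand and had a log2FC of 0.12.

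Parp9 (ENSMUSG00000022906, chr16:35758840-35792975, plus strand), which works with the ubiquitin ligase Dtx3l, had 62.4, 81.6 and 78 CPM in CD36+ NK and 62.8, 68.5 and 66.2 CPM in CD36- NK. The groups overlapped, since CD36+ NK replicate 1 was the lowest of the 6 libraries, and the log2FC was 0.17 (SE 0.118, edgeR adjusted p = 0.424). Parp14 (ENSMUSG00000034422, chr16:35653244-35691914, minus strand), an ADP-ribosyltransferase and the gene of highest FPKM in this class (18.8), had 179, 237 and 236 CPM in CD36+ NK and 180.3, 223 and 234 CPM in CD36- NK. Replicate 1 was the lowest library in both groups, and the log2FC was 0.04 (SE 0.151, edgeR adjusted p = 0.918). Parp9 and Dtx3l overlap by 682 bp on opposite strands, and Dtx3l had a log2FC of 0.18.

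**Figure D3:**
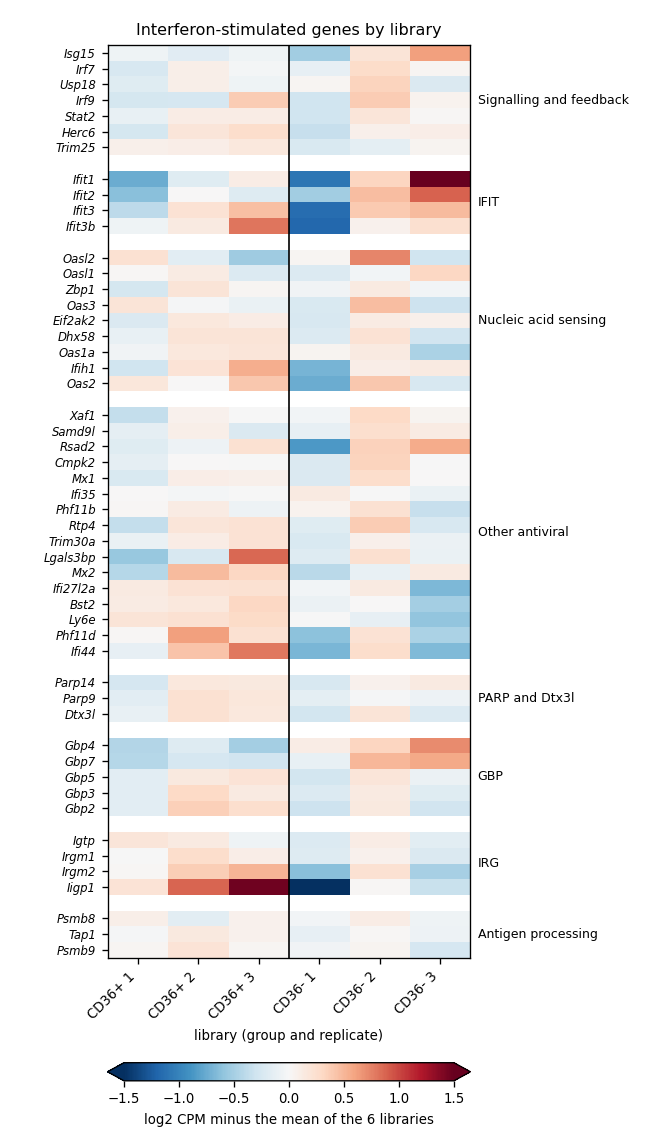
Log2 CPM of each of the 51 genes in each library, minus the mean over the 6 libraries, with columns for CD36+ NK replicates 1 to 3 and CD36- NK replicates 1 to 3. The replicate 1 columns are below the mean for most genes. Taken instead from the mean of the 3 libraries of their own group, their median deviations were -0.18 and -0.21.

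Levels of the 51 genes also differed between replicates of a group. The level was lowest of its group in CD36+ NK replicate 1 for 40 of the 51 genes (78.4%, against 40.9% of all tested genes) and in CD36- NK replicate 1 for 37 of the 51 (72.5%, against 31.7%). For 31 of the 51 genes (60.8%, against 17.7% of all tested genes) replicate 1 was lowest in both groups. Deviations were also taken from a gene's mean over the 3 libraries of the same group. Their median was -0.18, 0.08 and 0.08 on the log2 scale in CD36+ NK and -0.21, 0.22 and -0.04 in CD36- NK. CD36- NK replicate 2 was the highest of its group in 35 genes (against 31.8% of all tested genes) and the lowest of the 6 libraries in 0. The highest level exceeded the lowest within a group by a median of 1.27-fold in CD36+ NK and 1.44-fold in CD36- NK, and by over 2-fold in 2 and 9 genes.

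The replicate numbers are those of the sample titles, and the replicate 1 libraries also carried names of another form than the rest. Within replicate 1 alone, 34 genes were higher and 17 lower in CD36+ NK, with a median log2 difference of 0.12. Within replicates 2 and 3 alone, 32 were higher and 19 lower, with a median of 0.09. Neutrophil marker genes summed to 4488 CPM in CD36+ NK replicate 1 and to 3738 CPM in CD36- NK replicate 1, and to between 763 and 2120 CPM in the other libraries. T cell markers summed to 337 CPM in CD36+ NK replicate 1 and to between 27.4 and 47.6 CPM elsewhere. The study gated NK cells in flow cytometry as live single cells that were CD3- NK1.1+, which leaves out T cells, and the gate of this sort was not given separately. The part of these cells in the low levels of replicate 1 was not tested.

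Among the ligand and the kinases of the pathway, Ifng, Jak1 and Tyk2 had larger differences, and Jak2 did not. The pathway was described with 111 further genes, of which 99 were tested. Of these 99, 1 was a DEG higher in CD36+ NK and 2 were DEGs lower (3.03%, below the 5.96% of all tested genes). At the adjusted p-value alone 5 were higher and 7 lower (5.05% and 7.07%, against 5.07% and 5.43% of all tested genes). Their median log2FC was 0.03. Ifng, the gene of IFN-γ, had 38.5, 56.2 and 59.1 CPM in CD36+ NK and 210.4, 218 and 492 CPM in CD36- NK. Its log2FC was -2.58 (SE 0.371, edgeR adjusted p = 0.008), and every CD36- NK library lay above every CD36+ NK library. The 10 NK lineage markers were also lower in CD36+ NK, with log2FCs from -2.58 to -2.21 and a median of -2.45, and their part in the levels of Ifng, Jak1 and Tyk2 was not tested. Of the type I and type III interferons, Ifna1, Ifna2, Ifna4, Ifna5, Ifnb1, Ifnl2 and Ifnl3 had too few counts for the test, with 0 to 5 counts of Ifna1 per library, 0 to 4 of Ifnb1 and 0 in all libraries for Ifna5.

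Jak1, the kinase shared by the receptors of both interferon types, was a DEG, with 600.2, 561 and 545 CPM in CD36+ NK and 1116, 1046 and 1329 CPM in CD36- NK (log2FC -1.03, SE 0.117, edgeR adjusted p = 0.00392). Without CD36- NK replicate 3 the value for Jak1 was -0.93, under a 2-fold change. Tyk2, its partner at the type I receptor, was lower in CD36+ NK by less than 2-fold, with a log2FC of -0.77 (edgeR adjusted p = 0.00429). Jak2, its partner at the IFN-γ receptor, had a log2FC of -0.02 (edgeR adjusted p = 0.929). The receptor genes did not pass the threshold. Ifnar1 had a log2FC of -0.30 (edgeR adjusted p = 0.0645), with 128, 129.6 and 133 CPM in CD36+ NK and 167, 149 and 165 CPM in CD36- NK. Ifngr1 had -0.15 (edgeR adjusted p = 0.539), with 236, 305 and 331 CPM in CD36+ NK and 318, 332 and 318 CPM in CD36- NK. The groups overlapped for Ifngr1 and not for Ifnar1. Ifngr2, named after its values were seen, lay the other way without overlap, with 82.6, 94.9 and 88.9 CPM in CD36+ NK and 60.7, 71.6 and 42.4 CPM in CD36- NK (log2FC 0.61, SE 0.184, edgeR adjusted p = 0.0807).

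Irf1, a transcription factor induced early by IFN-γ, had 119, 123 and 131 CPM in CD36+ NK and 156, 132 and 155 CPM in CD36- NK, with a log2FC of -0.25 (SE 0.0987, edgeR adjusted p = 0.163). The groups did not overlap, and every CD36- NK library lay above every CD36+ NK library. Tlr3, an endosomal receptor for double-stranded RNA, was the DEG higher in CD36+ NK, with 11.7, 20.8 and 17.2 CPM against 6.06, 8.82 and 6.24 CPM (log2FC 1.24, SE 0.258, edgeR adjusted p = 0.0283). It was no longer a DEG without CD36+ NK replicate 2 or 3 (edgeR adjusted p = 0.0934 and 0.0936) or without CD36- NK replicate 1 or 3 (0.103 and 0.102). The other pathway genes past the adjusted p-value with less than a 2-fold change were Irf5 (0.61), Tlr9 (0.69), Aim2 (0.69) and Sp140 (0.54), all higher in CD36+ NK, and Ptpn2 (-0.52), Cgas (-0.72), Sp100 (-0.46) and Epsti1 (-0.62), all lower. Of the 65 tested genes that are further induced targets, 0 were DEGs by edgeR, 16 (24.6%, against 26.3% of all tested genes) had an unadjusted p below 0.05, 1 (Ifitm1) was a DEG by DESeq2, and the median log2FC was 0.03.

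**Figure D4:**
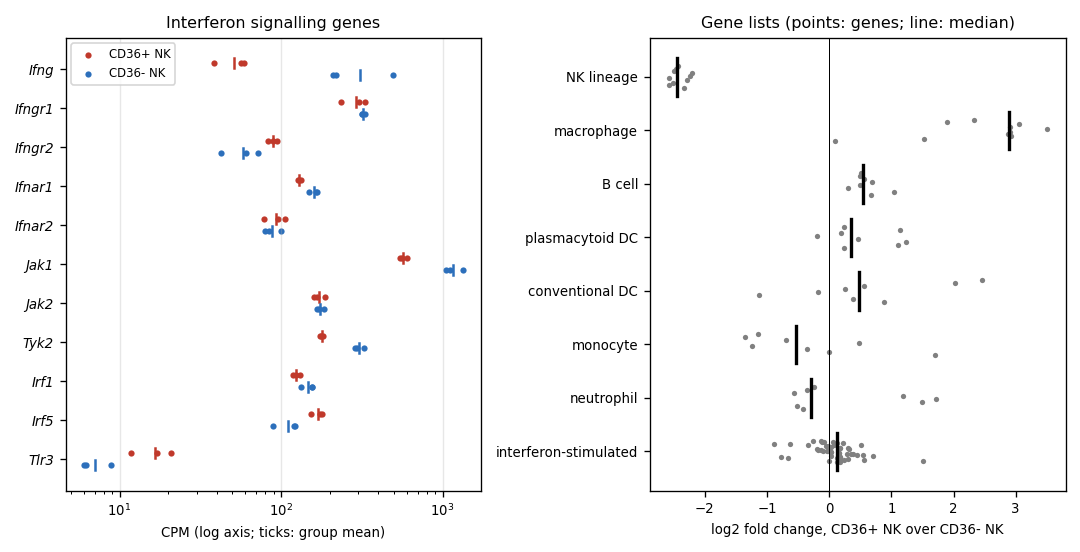
Left, TMM-scaled CPM per library of Ifng and of receptor, kinase and transcription factor genes of the pathway, with red for CD36+ NK and blue for CD36- NK. Right, log2FCs of the genes of 7 marker lists and of the 51 interferon-stimulated genes, with the median of each; the NK lineage median is -2.45, the macrophage median 2.89 and that of the 51 genes 0.12.

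Marker genes of several cell types differed between the groups, and interferon-stimulated genes are expressed by many of these cell types. In bulk samples, fewer cells of a type and less RNA per cell cannot be told apart. Cd36 had 109, 262 and 237 CPM in CD36+ NK and 14.3, 31.7 and 17.1 CPM in CD36- NK (log2FC 3.27, SE 0.426, edgeR adjusted p = 0.00615). All 10 NK lineage markers were DEGs lower in CD36+ NK, with a summed level of 848 to 1038 CPM there and 4534 to 5725 CPM in CD36- NK, and a median log2FC of -2.45. Their 3 most counted genes were Gzma, Prf1 and Klrb1c, with log2FCs of -2.57, -2.51 and -2.46. The defining markers of NK cells were thus present in the libraries titled CD36+ NK, at lower levels than in those titled CD36- NK.

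All 10 tested markers of macrophages and Kupffer cells, of 12 listed, were higher by sign in CD36+ NK, and 4 were DEGs by edgeR and 8 by DESeq2. The 12 listed genes summed to 6722 to 9350 CPM in CD36+ NK and to 2467 to 5800 CPM in CD36- NK. Lyz2 alone had 3479 to 4296 CPM of this in CD36+ NK and 2048 to 4738 CPM in CD36- NK. The median log2FC of the 10 tested genes was 2.89. It was 2.35 without CD36+ NK replicate 3 (11 tested) and 4.23 without CD36- NK replicate 2 (12 tested). The most counted, Lyz2, Csf1r and C1qb, had log2FCs of 0.09, 1.89 and 2.87. The 8 B cell markers were also all higher by sign, with 1 DEG, a median of 0.54 and a summed level of 4940 to 5526 against 3225 to 3690 CPM. Of the 8 plasmacytoid dendritic cell markers, 7 were higher by sign, 0 were DEGs by edgeR, 2 had an unadjusted p below 0.05, 1 was a DEG by DESeq2, and the median was 0.35, with a summed level of 498 to 583 against 383 to 456 CPM. Most of that sum was Spib (379 against 275 CPM on average), which B cells also express, while Siglech was at 3.35 against 2.82 CPM (edgeR adjusted p = 0.71). Markers of conventional dendritic cells had a median of 0.47, with Xcr1 (2.46) and Clec9a (2.03) DEGs higher and Itgax (-1.13) a DEG lower. That median was 0.73 without CD36- NK replicate 2 and 0.29 without CD36- NK replicate 3. Monocyte markers had a median of -0.53, with Cd14 (1.70) a DEG higher and Ccr2 (-1.35) a DEG lower, where DESeq2 called 1 higher and 3 lower. Neutrophil markers had a median of -0.30. The 8 T cell markers had a median of 2.58 with all 8 higher by sign, and this rested on CD36+ NK replicate 1: without it 2 were higher and 6 lower, with a median of -0.78. Without the same library the medians of the monocyte and neutrophil markers were -0.98 and -1.71. The neutrophil median was 0.14 without CD36- NK replicate 1, 0.12 without CD36+ NK replicate 2 and 0.07 without CD36+ NK replicate 3. No marker was at 0 in all 6 libraries. The part of these cells in the levels of the interferon-stimulated genes was not tested.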

How the data were processed

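Libraries were made from 3 samples of each fraction. The authors used Seqtk to filter reads, mapped them with HISAT2 (version 2.0.4, per the submitters' processing notes), used StringTie to count fragments and deposited raw counts and FPKM values. The gene length implied by the deposited FPKM, the count and the library total was the same in all 6 libraries, within 0.01%, for 100% of the 7439 genes with over 200 counts in every library. The processing notes name the rat build mRatBN 7.2 although the gene identifiers are of mouse, and the build of the table's coordinates was not given in the sources used here. The strand setting of the counting was not given either. The lines of 2 genes were broken and were rejoined. Library names of the samples titled CD36+ have a double hyphen that can be read as CD36-, and groups follow the titles. Titles 1 to 3 of CD36- NK are libraries numbered 6, 1 and 2, so pairing by title number is uncertain.

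Counts were tested with edgeR 4.0.16 in R 4.3.3, with filterByExpr at a minimum count of 10, TMM scaling and the quasi-likelihood test without a block, and p-values were adjusted by the Benjamini-Hochberg method over the 14761 tested genes. The SE is the size of log2FC over the square root of F. The biological coefficient of variation was 20.3%. Of the 27171 genes with any count, the others were left out of the test. The script was tested on simulated data. Chi-square per degree of freedom between replicates was 14.8 to 29.2, so no pair matched within counting noise and none was merged. This does not show separate animals. The p-values measure the spread between these samples.

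The 51 genes and the pathway and marker lists were chosen with earlier results of these data known. Values in every library are given for the gene of lowest p and of highest mean FPKM in each class, and for genes beyond 2-fold without overlap. Of the pathway, the DEGs and Ifng, Ifnar1, Ifngr1 and Irf1 were named, while 1 further gene of that rule is not reported here, and of the markers the 3 most counted of the NK and macrophage lists. Any further gene was named with its values in view. Runs of 50 bases shared with other genes were counted in the GENCODE M21 transcripts of GRCm38, and 17 of the 51 genes shared none. Promoters were taken from RefSeq, GRCm38.p6. Alternatives were DESeq2 1.42.0, upper-quartile scaling, other filters, no fold threshold, blocks for the replicate number and for the form of the library name, and each replicate left out. The fit on replicates 2 and 3 alone was added after the data were seen. Tables were handled with Python 3.11.15.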

Additional observations from a re-analysis of the deposited data

How the results depend on the processing

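With 3 libraries in each group, the interval of each gene limits what could be detected, and Ifi44 and Iigp1, with the lowest FPKM, had among the widest intervals. Genes of higher level had wide intervals too. The widest was that of Ifit1 (mean FPKM 6.26), and those of Ifit3 (25.3) and Lgals3bp (40.2) were wider than that of Ifi44. The number of interferon-stimulated genes called stayed at 0 in each direction under upper-quartile scaling, both other filters on low counts, the replicate block, replicates 2 and 3 alone and each left-out replicate. DESeq2 called 1 higher (Iigp1, log2 fold change 1.5, adjusted p = 0.0291), as did the block for the form of the library name (Iigp1, 1.63, edgeR adjusted p = 0.0248), and 1 lower passed with no fold threshold (Gbp4). Their median log2 fold change ran from 0.03 to 0.20 over the left-out replicates. The replicate numbers were not shown to pair the samples, since deviations of same-numbered libraries from their group means had correlations across genes of 0.310, 0.0515 and -0.0837. These numbers are those of the titles, and the library names number the CD36- NK samples differently. With the replicate block the median of the 51 genes was 0.12, Gbp4 had -0.76 (edgeR adjusted p = 0.0664), Gbp7 -0.64 (0.0568) and Iigp1 1.63 (0.057). Gbp7 passed the threshold with DESeq2 (-0.68, adjusted p = 0.00971), with the block for the form of the library name (-0.64, edgeR adjusted p = 0.025) and with replicates 2 and 3 alone (-0.81, edgeR adjusted p = 0.0342), where Gbp4 did not (-0.88, edgeR adjusted p = 0.0826). The cause was not tested.

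Of the other pathway genes, 2 were called higher with DESeq2 (Tlr3 and Ifitm1) and 3 with the replicate block (Tlr3, Ifitm1 and Cxcl9). The same 3 were called higher with the block for the form of the library name, and 0 with replicates 2 and 3 alone. With no fold threshold 5 were higher and 7 lower. Over the left-out replicates 0 to 2 were higher and 1 to 2 lower. Ifng was called lower in every fit, while Jak1 lost its 2-fold change without CD36- NK replicate 3. Of all tested genes, 221 of 14761 were called higher with the replicate block and 107 of 14848 with replicates 2 and 3 alone. With no fold threshold 749 were higher and 802 lower (5.07% and 5.43%). The numbers of all tested genes called with DESeq2 and with the block for the form of the library name are not given here. Over the left-out replicates 94 to 708 were called higher, the lowest without CD36- NK replicate 1, and 288 to 554 lower, the lowest without CD36- NK replicate 3.

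Changes of sign were found in genes that passed no threshold. Psmb8 had -0.0063 with DESeq2, -0.0011 with the replicate block, -0.00021 with the block for the form of the library name and -0.0733 with replicates 2 and 3 alone. The last also gave 0.0233 for Ifi35, 0.0523 for Zbp1, -0.200 for Oas3, -0.00019 for Stat2 and -0.0994 for Ifit3. Over the left-out replicates the log2 fold change ran from -0.233 to 0.062 for Cmpk2, from -0.0823 to 0.131 for Eif2ak2, from -0.0255 to 0.253 for Herc6, from -0.0852 to 0.0306 for Ifi35, from -0.308 to 0.307 for Ifit3, from -0.324 to 0.105 for Irf9 and from -0.531 to 0.013 for Isg15. It ran from -0.384 to 0.411 for Lgals3bp, from -0.16 to 0.0897 for Mx1, from -0.138 to 0.299 for Oas3, from -0.173 to 0.0997 for Oasl1, from -0.563 to 0.0058 for Oasl2, from -0.0832 to 0.146 for Parp14 and from -0.128 to 0.151 for Phf11b. It ran from -0.0547 to 0.0744 for Psmb8, from -0.469 to 0.13 for Rsad2, from -0.0953 to 0.244 for Rtp4, from -0.0732 to 0.172 for Stat2, from -0.249 to 0.0387 for Usp18 and from -0.125 to 0.0871 for Zbp1.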

Other observations

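The Ifitm genes, which are induced by both interferon types and encode membrane proteins that block viral fusion, were named after their values were seen. Ifitm3 had 291, 329 and 323 CPM in CD36+ NK and 220.3, 255 and 121 CPM in CD36- NK, a difference of 0.66 on the log2 scale (edgeR adjusted p = 0.147). Ifitm2 had 132, 142 and 127 CPM against 95.8, 85.9 and 42 CPM (0.84, edgeR adjusted p = 0.101), and Ifitm1 had 34.3, 19.5 and 15.2 CPM against 14, 11.8 and 7.11 CPM (1.06, edgeR adjusted p = 0.108). In all 3 genes the groups did not overlap, CD36- NK replicate 3 was the lowest library, and none passed the threshold in edgeR without a block. Ifitm1 passed it with DESeq2 (1.06, adjusted p = 0.0275) and in edgeR with the replicate block (1.04, adjusted p = 0.0344) or the block for the form of the library name (adjusted p = 0.0432). It did not pass with replicates 2 and 3 alone (0.86, edgeR adjusted p = 0.18) or with any replicate left out, where it was 0.64 without CD36+ NK replicate 1 (edgeR adjusted p = 0.222). Ifitm2 passed the adjusted p with DESeq2 (0.84, adjusted p = 0.0194) and without CD36- NK replicate 3 (0.55, edgeR adjusted p = 0.0386). Without the same library Ifitm3 was at 0.40 (edgeR adjusted p = 0.115).

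The chemokines Cxcl9 and Cxcl10 draw lymphocytes through CXCR3. Cxcl9, an IFN-γ target, had 10.7, 17 and 20.7 CPM in CD36+ NK and 3.84, 10.2 and 9.45 CPM in CD36- NK (log2FC 1.05, edgeR adjusted p = 0.144). It passed in edgeR with the replicate block (1.09, adjusted p = 0.0447) and with the block for the form of the library name (1.10, adjusted p = 0.0178). DESeq2 did not call it (1.03, adjusted p = 0.0633), and without CD36- NK replicate 1 it was at 0.70 (edgeR adjusted p = 0.216). Cxcl10 had 16.6, 25 and 27.4 CPM in CD36+ NK and 15, 35.4 and 92.6 CPM in CD36- NK (log2FC -1.04, edgeR adjusted p = 0.321). The high value of Cxcl10 was that of CD36- NK replicate 3, which was also the highest library for Ifit1 and Ifit2, and without it the log2FC of Cxcl10 was -0.14 (edgeR adjusted p = 0.884). Whether the changes of these genes differ from each other was not tested.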
